A study of Daphnia magna with 30 samples.

Results

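DM04300P2 is a microarray probe whose transcript was annotated in the study's probe table by its match to a Daphnia magna protein record named Testis development protein nyd-sp29. It is 1 probe of the 14338 on the array, the only probe of its target, and it is printed as 1 spot. It was chosen by name, because keyword mining of this trial's changed transcripts placed it under sex determination. That choice rested on its photoperiod test and its 20L:4D comparison on these same animals, so its levels by day length are given here as a description, without a test.

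Adult female Daphnia magna, a planktonic crustacean, were held from birth to 21 days of age at 25 °C under 1 of 5 photoperiods, and 1-colour arrays of whole-animal RNA were run on 30 of them. The control photoperiod was 16L:8D, that is 16 h of light and 8 h of dark, which was also the light cycle of the stock culture. The extremes were a shortest day of 4 h of light (4L:20D) and a longest day of 20 h of light (20L:4D). Between them lay a short day (8L:16D) and an equinox day with light and dark of equal length (12L:12D). Each photoperiod had 3 chambers stocked with 20 animals, of which 2 per chamber (A and B) were arrayed, giving 6 arrays per photoperiod. All animals descended from 1 female, so the trial covers a single genotype. The 3 chambers of a photoperiod shared 1 light box, and box and photoperiod cannot be told apart. Eggs and embryos carried in the brood pouch were part of the whole animal, so a change in their number and a change in RNA per cell cannot be told apart either. A vitellogenin probe, DM00375P2, whose product is the yolk precursor of egg-bearing females, was well above background on all 30 arrays.

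Daphnia reproduce by cyclic parthenogenesis. In favourable seasons females produce daughters from unfertilized eggs, and cues such as shortening days or crowding lead mothers to produce genetically identical sons. The offspring's sex is set late in egg maturation by the mother's hormonal state: mothers exposed to methyl farnesoate, the crustacean juvenile hormone, bear sons, and the transcription factor doublesex is then active in the male embryo. The NYD-SP29 name comes from a human testis transcript. What the protein does in Daphnia is not known from the sources used here, and no role is given to it below.

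The probe sequence is shown because every value of DM04300P2 is the signal of these bases. Beside it stand the probes for transformer-2 and transformer, 2 transcripts with an established place in the sex determination of Drosophila. There they encode splicing factors that set the female splice form of doublesex. For Daphnia magna the paper calls the part of transformer inconclusive. The sequences are those of the study's probe table, and a chromosome was not given in the sources used here.
DM04300P2: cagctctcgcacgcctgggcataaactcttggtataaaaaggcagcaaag
DM11280P1 (transformer-2): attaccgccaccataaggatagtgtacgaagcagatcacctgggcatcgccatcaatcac
DM06854P1 (transformer): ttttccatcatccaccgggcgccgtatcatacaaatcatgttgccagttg
DM04300P2 is 50 bases long, as were 850 of the 953 probes in that table, and 25 of its bases are G or C. A smaller share of G and C was found in 57.0% of the probes of the table. The longest run of bases it shared with any of the other 952 probes, on either strand, was 9 bases.

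DM04300P2 was a dim probe. Levels are given as log2 of the processed signal less log2 of the array's 75th percentile, so a value of 0 is the 75th percentile and each unit is a doubling. Its values ran from -6.15 to -4.32 with a median of -5.35 over the 30 animals. The processed signal was 5.16 to 26.6 units, against medians of 1.70 to 3.91 units for the 77 negative control spots of the same arrays. Its signal was 2.75 to 9.63 times that control level, with a median of 4.69. The scanner software set it well above background on 20 of the 30 arrays, and the error it attached to the single spot was 13.4% to 32.2% of the signal, with a median of 20.7%. On the log2 scale that spot error has a median of 0.30. Over all arrays the 75th percentile was 359 to 643 units, and 69.5% to 89.8% of probes were well above background.

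Under the shortest day, 4L:20D, DM04300P2 had its highest mean, -4.92 ± 0.44 (SD, n = 6). Chamber mates A and B had -4.55 and -5.22 in chamber 1, -4.32 and -5.42 in chamber 2, and -5.28 and -4.75 in chamber 3. The probe was well above background in all 6 animals, which was so in no other photoperiod.

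Under 8L:16D its mean was -5.57 ± 0.37 (SD, n = 6). The chamber mates had -5.65 and -5.11, then -5.35 and -6.12, then -5.83 and -5.37. It was well above background in 4 of the 6 animals, and the lowest of them, at 5.16 units, was the dimmest reading of the trial.

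The 12L:12D animals fell into a tight upper set and a pair of low ones, with a mean of -5.43 ± 0.50 (SD, n = 6). Their values by chamber were -5.22 and -6.00, then -5.08 and -5.06, then -6.13 and -5.06. The probe was well above background in 5 animals. This photoperiod had the widest SD, because 2 animals of different chambers lay at -6.00 and -6.13 while the other 4 lay between -5.22 and -5.06.

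In the 16L:8D control the mean was -5.00 ± 0.42 (SD, n = 6). Both animals of chamber 1 were low, at -5.63 and -5.37, while chamber 2 had -4.47 and -4.82 and chamber 3 had -4.86 and -4.83. Although this was the second highest mean, the probe was well above background in only 3 of the 6 animals. The share of probes well above background on these 6 arrays was 69.5% to 80.9%.

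Under the longest day, 20L:4D, DM04300P2 had its lowest mean, -5.83 ± 0.29 (SD, n = 6). The chamber mates had -5.93 and -5.93, then -5.97 and -6.15, then -5.36 and -5.61. The probe was well above background in 2 of the 6 animals, so most of these values are readings near the detection limit. The mean processed signal was 8.53 ± 1.75 units, against 16.3 ± 5.47 for the shortest day and 13.9 ± 3.41 for the control (SD, n = 6 each).

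**Figure D1:**
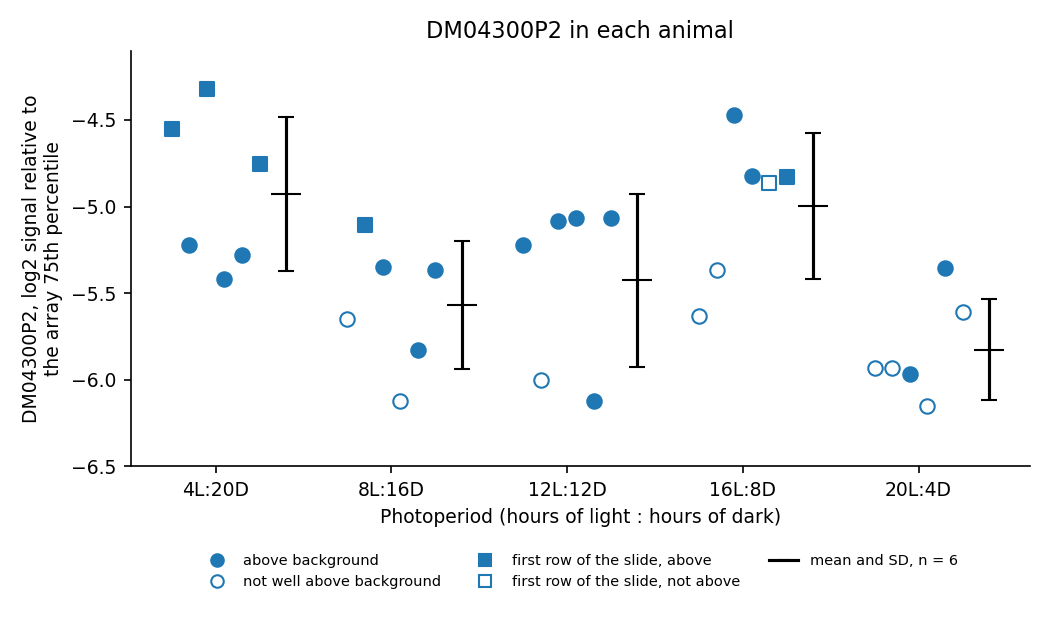
DM04300P2 in each of the 30 animals (points; log2 signal relative to the array's 75th percentile) by photoperiod, ordered within each photoperiod by chamber and letter, with the mean and SD of 6 animals beside them; filled points were well above background and squares came from the first row of a slide. The means run from -4.92 on the shortest day to -5.83 on the longest, and the 20L:4D animals lie low with 4 of 6 open points.

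From the highest mean to the lowest the order was the shortest day, then the control, then the equinox day, then 8L:16D and last the longest day, which is not the order of the hours of light. The steps between neighbours in that order were 0.07, 0.43, 0.14 and 0.26 on the log2 scale. The SD between animals of one photoperiod was 0.41 over the whole trial, and the animals of every pair of neighbours overlapped. Only the step from the control to the equinox day, 0.43, was larger than that SD, and there 4 of the 6 equinox animals lay above the lowest control.

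Against the control, the 20L:4D mean was lower by 1.78-fold, a log2 difference of -0.83 with an SE of 0.25 from the limma fit over all probes. Of the 36 pairs formed by a 20L:4D and a 16L:8D animal, the 20L:4D animal was lower in 33, and 4 of the 6 20L:4D animals lay below every control. The log2 difference from 16L:8D was -0.57 for 8L:16D and -0.43 for the equinox day, each with an SE of 0.25. For 4L:20D it was 0.07 with the same SE, and both groups spread over more than 1 log2 unit. Over all arrays the widest gap was between the 2 extremes, where 20L:4D had a log2 difference of -0.90 from 4L:20D and was lower in 35 of 36 pairs of animals. In the first row of a slide, a position taken up below, lay 3 of the 6 4L:20D arrays and no 20L:4D array. These differences chose the probe. Over all probes, 10 of 14336 passed the photoperiod F test at an adjusted p under 0.05, which is 0.0698%, and 11.3% had an unadjusted p under 0.05.

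Animals of one chamber differed as widely as animals of one photoperiod. Chamber mates differed by 0.47 on average, from 0.0011 in chamber 1 of 20L:4D to 1.10 in chamber 2 of 4L:20D. The SD between chamber mates was 0.41, the same as that over all animals of a photoperiod, and the SD of chamber means around their photoperiod mean was 0.29. For comparison, 41.8% of all probes had a smaller SD within photoperiods than DM04300P2. Animal A was higher in 8 of the 15 chambers.

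The letter was not used to choose the probe and could be tested. It only labels the 2 animals drawn at random from a chamber, so the test carries no biological question. The fit did not pair chamber mates. A animals were 0.08 higher than B animals on the log2 scale (SE 0.16), which did not pass the limma test (adjusted p = 0.95 over all probes). The letter difference did not change detectably with photoperiod either (limma interaction, adjusted p = 0.999). Among all probes, 0 of 14336 passed either test after adjustment, that is 0.00%, while 272 (1.90%) had an unadjusted letter p under 0.05 and 525 (3.66%) an unadjusted interaction p under 0.05.

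The position of an array on its slide moved with DM04300P2. Slides carried arrays in 4 rows, and the 6 arrays from the first row had a mean of -4.74 ± 0.27 (SD, n = 6), against -5.50 ± 0.45 for the other 24 arrays. All 6 first-row animals were above the mean of their own photoperiod, by 0.32 on average. First-row arrays held 3 animals of the shortest day, 2 controls and 1 animal of 8L:16D, with none from the equinox or the longest day, so the 2 photoperiods with the highest means also held 5 of the 6 first-row arrays. As deviations from the photoperiod means, first-row arrays were 0.40 higher than the rest for DM04300P2, while the median over all probes was -0.05. For 668 probes with a mean within 0.25 log2 of its own, the median was -0.16. The shift was lower than that of DM04300P2 in 91.3% of all probes and in 91.5% of those 668. The photoperiod means used here include the first-row arrays, and the rest include the equinox and longest days, which had none. The 0.40 is thus not a difference between first-row and other arrays of the same photoperiod. On average 76.9% of probes were well above background on first-row arrays and 82.7% on the others.

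Without the first-row arrays the 4L:20D mean was -5.31 ± 0.10 (SD, n = 3) and that of 16L:8D was -5.07 ± 0.52 (SD, n = 4), so the order of those groups turned. The log2 difference of 20L:4D from 16L:8D was then -0.75, and it was -0.67 with the row as a term in the model. For 4L:20D the difference from 16L:8D was -0.23 without the first row and -0.01 with the row as a term. On the equinox and longest days, neither of which had a first-row array, the means stay as given above. Without the first row the widest gap between means was thus between the control and the longest day, at -5.83, and no longer between the shortest and the longest day.

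**Figure D2:**
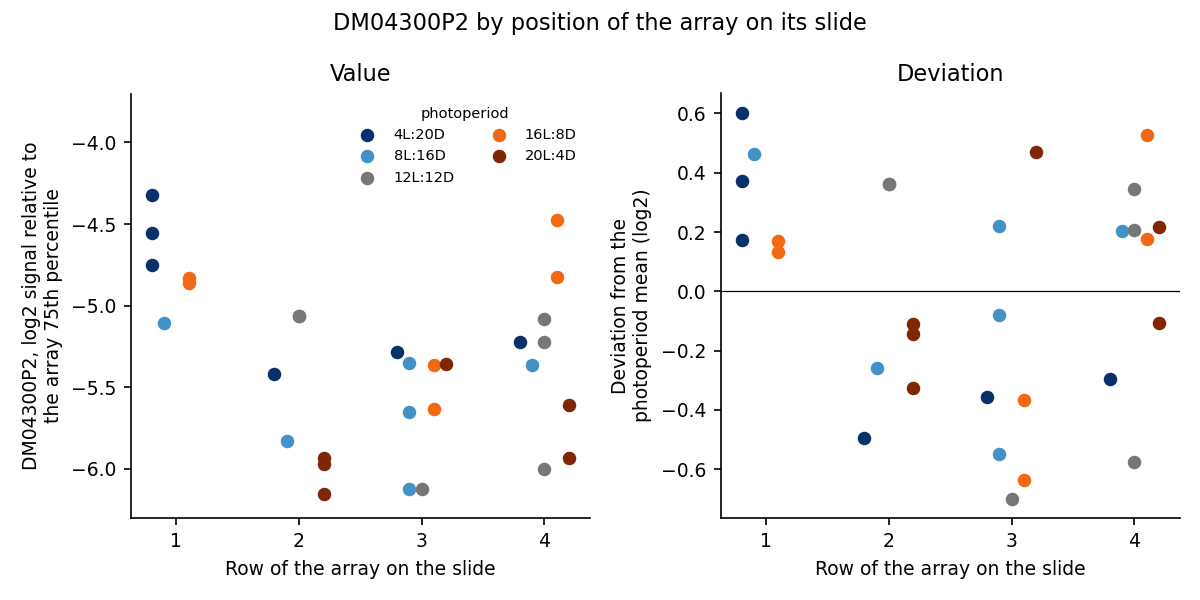
DM04300P2 against the row of the array on its slide, as log2 value relative to the array's 75th percentile (left) and as deviation from the animal's photoperiod mean (right), 1 point per animal and 1 colour per photoperiod. The 6 first-row animals all lie above 0 on the right, while each other row holds animals on both sides.

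The arrays lay on 9 slides, which also separate the 2 scan days. With the slide as a block, the log2 difference of 20L:4D from 16L:8D was -0.92. Only slide 5 held both of these photoperiods, and there the difference of the 20L:4D animal from the mean of the 2 control animals was -1.10. On the 3 slides that held both extremes, the difference of 20L:4D from 4L:20D was -0.83, -1.38 and -1.03. For -1.38 and -1.03 the 4L:20D animal was on a first-row array and no 20L:4D animal was. No first-row array was behind the -0.83. Control animals were above 8L:16D on the only slide with both, by 0.67, and above 12L:12D on both shared slides, by 0.23 and 0.28. In each of these comparisons the control array was in the first row and the 8L:16D or 12L:12D arrays were not. Row and photoperiod cannot be told apart there. Between 16L:8D and 4L:20D the direction differed between the 2 shared slides, where control minus 4L:20D was -0.11 on one and 0.27 on the other.

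**Figure D3:**
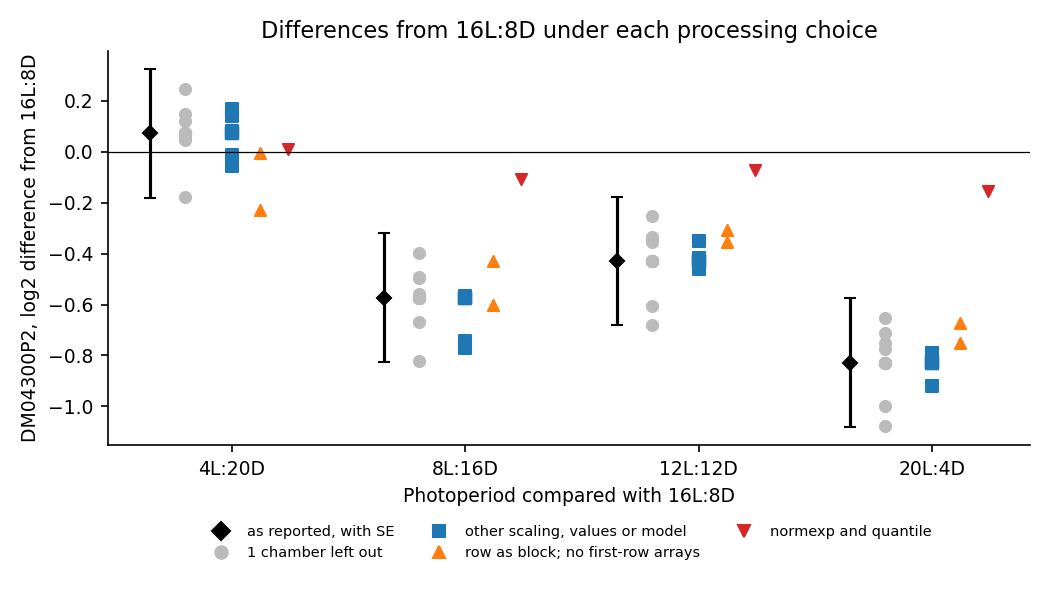
Log2 difference of DM04300P2 from 16L:8D for the 4 other photoperiods as reported (black, with SE), with each chamber left out in turn (grey), under other scalings, values and models (blue), with the slide row taken into account (orange), and after normexp background correction with quantile normalization (red). The 20L:4D differences run from -1.08 to -0.15, all below 0, and the 4L:20D differences lie on both sides of 0.

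Measures of array quality were set against DM04300P2 over the 30 arrays, as 4 relations with 2-sided permutation p-values. The share of probes well above background gave Pearson r = -0.36 (permutation p = 0.0505, adjusted p = 0.20) and Spearman rho = -0.35 (permutation p = 0.0553, adjusted p = 0.22). Without the 2 arrays farthest from the median of that share, r was -0.42. Arrays on which fewer probes cleared background thus tended to read this dim probe higher, but the relation did not pass the correction under this scaling. It did after quantile normalization (r = -0.57, adjusted permutation p = 0.00264) and after normexp with quantile normalization (r = -0.49, adjusted permutation p = 0.0242). Within photoperiods, over 6 arrays each, r was -0.63 on the shortest day, -0.35 on the short day of 8L:16D, 0.33 at equinox, -0.14 for the control and -0.64 on the longest day. The 75th percentile gave r = -0.24 and rho = -0.26, the first principal component of all probes r = -0.20 and rho = -0.15, and the second r = 0.11 and rho = 0.18, with adjusted permutation p-values from 0.31 to 0.54. The level of the negative control spots, added after the values were seen, gave r = 0.41 (permutation p = 0.02) and rho = 0.37 (permutation p = 0.04), with adjusted p = 0.12 and 0.14 over the 5 relations. With the photoperiod means removed r was 0.31 for the control spots (adjusted permutation p = 0.30) and -0.20 for the share of probes (adjusted permutation p = 0.42).

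Probes whose pattern was most like that of DM04300P2 were sought among the 8835 probes well above background on all 30 arrays, by Pearson r over the 30 animals. These r are a description, since the arrays share slides and scaling. The highest was DM06075P3 with r = 0.62 (rho = 0.64), followed by DM04193P2 with r = 0.61 (rho = 0.59), DM12689P2 with 0.58, DM05726P3 with 0.57, DM05985P1 with 0.56 and DM04228P1 with 0.56. Like DM04300P2, DM06075P3 had its 2 highest means in the control, at 3.97 ± 0.20, and on the shortest day, at 3.92 ± 0.23 (SD, n = 6 each). Its lowest mean was in 8L:16D, at 3.74 ± 0.13, rather than on the longest day, at 3.80 ± 0.18. The 4 lowest were DM01991P2 with r = -0.63 (rho = -0.66), DM05196P3 with -0.56, DM02145P2 with -0.55 and DM00146P1 with -0.55. DM01991P2 was lowest on the shortest day, at 3.51 ± 0.33, and in the control, at 3.53 ± 0.43, and it was at 3.77 ± 0.24 on the longest day (SD, n = 6 each). None of these 10 probes has a name in the annotation used here, so nothing can be said of what they encode. That annotation is the study's probe table, which holds sequences for 953 of the 14338 probes, so the lack of a name is a limit of the lookup. The choice depended on the filter for background, which DM04300P2 itself did not meet on 10 arrays. Over all 14337 probes with values, 2 of these 6 highest and 1 of these 4 lowest remained at the ends, where r reached 0.66 and -0.63.

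Over the whole set the median r was 0.01. In all 13 of the 8835 probes (0.147%) had an r over 0.5 and 17 (0.192%) one under -0.5. Some of these r were smaller without the 6 first-row arrays. Over the other 24 animals r was 0.48 for DM06075P3, 0.47 for DM04193P2, 0.38 for DM12689P2, 0.29 for DM05726P3, 0.29 for DM05985P1 and 0.30 for DM04228P1. For the lowest 4 it was -0.47 for DM01991P2, -0.56 for DM05196P3, which did not move, -0.42 for DM02145P2 and -0.43 for DM00146P1.

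With each photoperiod's mean removed, so that only the spread between animals of one day length is compared, other probes led the order. The highest was DM02705P1 with r = 0.68 (rho = 0.62), then DM08654P1 with 0.62, DM03860P1 with 0.60, DM01768P2 with 0.58, DM05980P2 with 0.58 and DM01376P3 with 0.57. The lowest were DM09005P2 with r = -0.64 (rho = -0.62), DM04801P3 with -0.63, DM00093P1 with -0.59 and DM12029P1 with -0.59. None of the 10 was among the 10 chosen on the values, and none has a name in the annotation used here. Without the first-row arrays DM02705P1 had r = 0.65 and DM09005P2 had r = -0.64, and without the 2 animals farthest from the median of DM04300P2 they had r = 0.58 and -0.60. The means of DM02705P1 ran from -2.65 ± 0.33 at equinox up to -2.26 ± 0.27 in 8L:16D (SD, n = 6 each), an order unlike that of DM04300P2. Of the deviations over all 8835 probes, 30 (0.340%) had an r over 0.5 and 35 (0.396%) one under -0.5. No chance level was computed for these counts or for those over the values. Neither therefore shows that a named probe varies with DM04300P2 beyond chance.

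**Figure D4:**
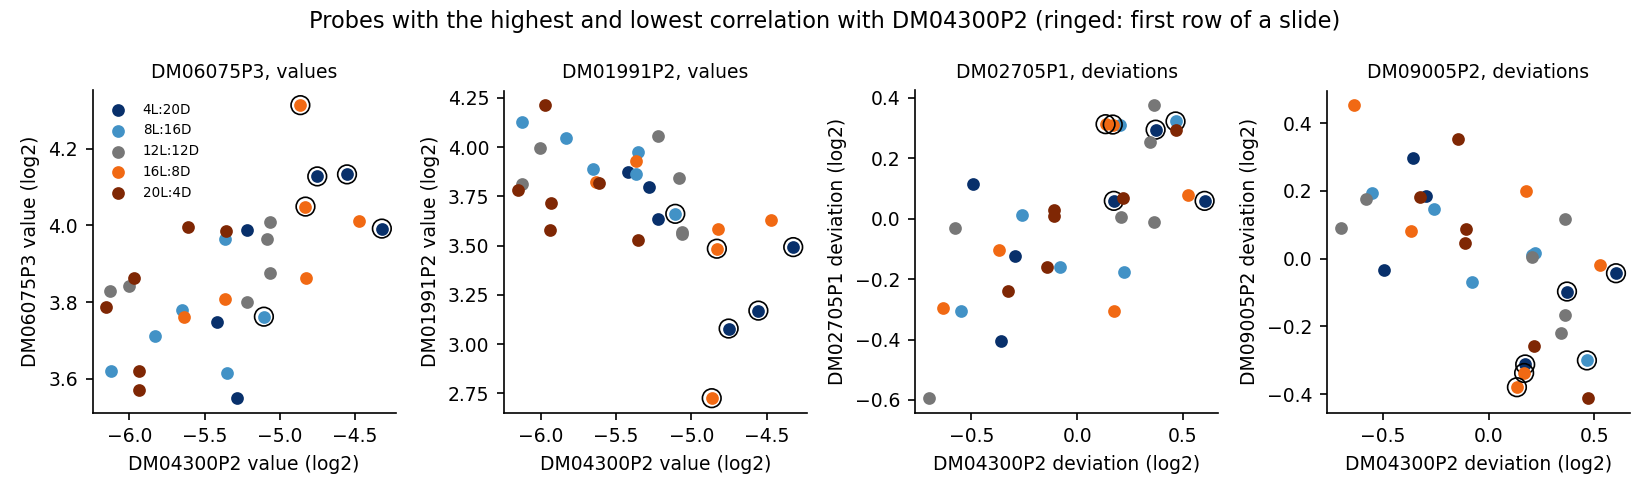
DM04300P2 (x axis, log2) against the probes with the highest and lowest r over the values (left pair) and over deviations from the photoperiod means (right pair), 1 point per animal coloured by photoperiod, with first-row animals ringed. On the left DM06075P3 and DM01991P2 have r = 0.62 and -0.63, with the ringed animals at one end, and on the right DM02705P1 and DM09005P2 have r = 0.68 and -0.64.

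Other transcripts named for sex determination, egg coverings or yolk were taken from a list of 9 probes that the study had called on the animals of its second trial. None of the 9 passed the photoperiod F test on these 30 arrays (limma, adjusted p from 0.48 to 0.88), and none had an unadjusted p under 0.05, the lowest being 0.0727 for DM03869P1. Over all probes those shares were 0.0698% and 11.3%, so 0 of 9 is close to the share over the array. The transformer-2 probe DM11280P1 was well above background on every array and its means lay between -1.70 ± 0.51 at equinox and -1.41 ± 0.04 on the shortest day (SD, n = 6 each). The transformer probe DM06854P1 had means from -4.32 ± 0.64 on the shortest day up to -3.93 ± 0.36 in 8L:16D, and on the longest day 1 animal at -2.39 stood apart from 5 with a mean of -4.24. In 20L:4D, where the log2 difference of DM04300P2 from the control was -0.83, the log2 difference was 0.18 (SE 0.22) for transformer-2 and 0.32 (SE 0.37) for transformer, with limma adjusted p = 0.98 for both. Over the 30 animals DM04300P2 had r = 0.12 with DM11280P1 (permutation p = 0.52) and r = -0.11 with DM06854P1 (permutation p = 0.55), with adjusted p = 0.76 for each over 11 relations.

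Most of the egg covering and yolk probes, 5 of the 7, had their widest difference from the control on the shortest day, where the difference of DM04300P2 was 0.07. The exceptions were DM03972P1, widest at equinox, and DM06044P1, widest in 8L:16D. The list's median log2 difference from the control was 1.07 on the shortest day, 0.32 on the short day of 8L:16D, -0.07 at equinox and 0.17 on the longest day, beside medians of -0.05, 0.02, -0.06 and -0.01 over all probes. On the shortest day 6 of the 9 were higher than the control and 3 lower. The lower ones were DM01555P3, a vitellogenin probe, at -1.39 (SE 0.69), the vitelline membrane outer layer probe DM06044P1 at -0.19 and transformer at -0.07, none of them past the limma test. In 4L:20D, 4 of the 9 had an unadjusted p under 0.05 against 16L:8D where 8.84% of all probes did, and none passed after adjustment (limma, adjusted p = 0.56 for each of the 4), as 0.0558% of all probes did. The 4 were read on the same animals, so they are not 4 separate results to set beside 8.84%. All 4 are annotated as chorion peroxidase, an enzyme that hardens the eggshell in Drosophila by cross-linking its proteins. The highest, DM08907P2, was at 1.84 ± 1.28 there and at -2.18 ± 3.61 in the control (SD, n = 6 each), a difference of 4.02 with an SE of 1.44. The others, DM08909P1, DM03869P1 and DM03972P1, were higher by 1.91, 1.40 and 1.24, and for DM03972P1 a single control animal at -3.57 stood above 5 with a mean of -5.96. In the control DM08907P2 was well above background in 3 of 6 animals and ranged from -5.77 to 2.81, and DM03972P1 was well above background in 1. DM03869P1 was well above background in 3 control animals and DM08909P1 in 1, the latter on 11 of the 30 arrays. The control values behind these differences are thus largely readings near the detection limit. In its second trial the paper reports lower chorion peroxidase, vitelline membrane and transformer-2 transcripts, and higher vitellogenin transcripts, under short days. The 4L:20D differences of the chorion peroxidase probes and of DM01555P3 here had the opposite direction. So had those of transformer-2, at 0.20, and of the vitelline membrane probe DM11500P2, at 1.07, while DM06044P1, at -0.19, went the paper's way. In 8L:16D, DM06044P1 at -0.44 and the chorion peroxidase probe DM08909P1 at -0.22 went the paper's way, and the other probes compared did not. The contrast between trials was not tested. At equinox only DM03972P1 had an unadjusted p under 0.05 (5.91% of all probes), with adjusted p = 0.67 by limma. Against the control none of the 9 had one in 8L:16D, where 14.2% of all probes did and 0.0139% passed after adjustment, or on the longest day, where 5.28% did and 0.00% passed.

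**Figure D5:**
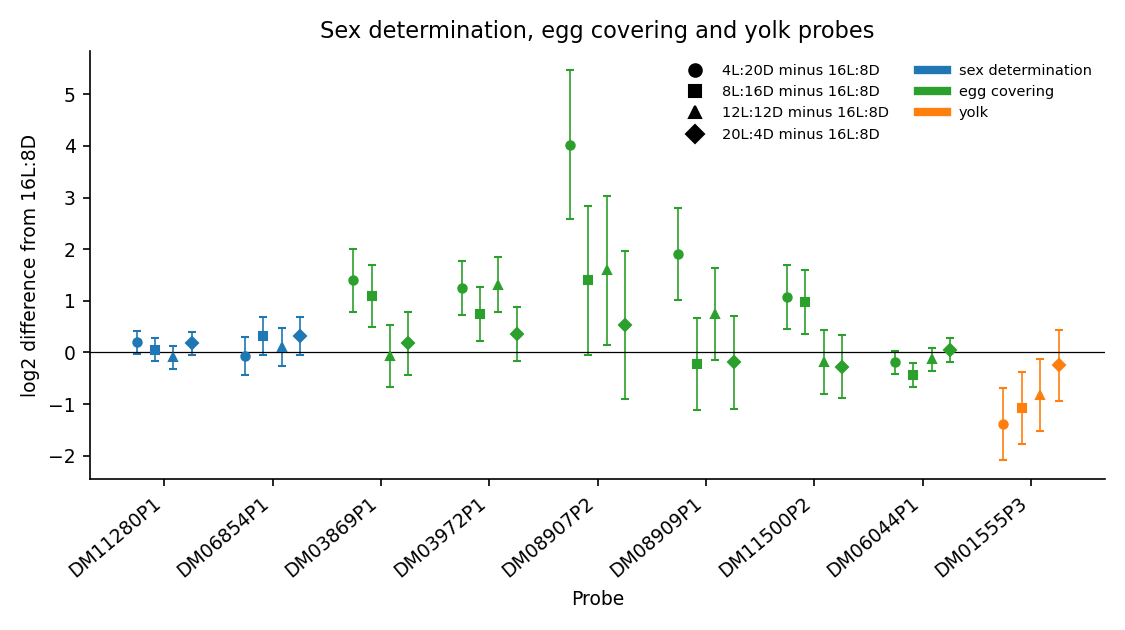
Log2 difference from 16L:8D, with the SE of the fit, of 9 probes taken from the study's second trial, for each of the 4 other photoperiods (marker shapes), coloured by the name of the transcript. The sex determination probes lie within 0.32 of 0, and the chorion peroxidase probe DM08907P2 in 4L:20D is the farthest from it at 4.02.

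The correlation of DM04300P2 with the egg probes was weak. Over the 9 probes of that list and the egg probes chosen on this trial, DM00375P2 (vitellogenin) and DM03056P3 (a putative Notch receptor), r lay between -0.31 for DM00375P2 and 0.23 for DM08909P1, and the lowest adjusted permutation p over the 11 relations was 0.655. Animals with a higher DM04300P2 value were thus not detectably those with higher yolk or egg covering transcripts at this number of arrays.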

How the data were processed

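The authors labelled 80 ng of total RNA per animal with Cy3, hybridized it to a custom Daphnia magna Agilent array, and extracted signals with Agilent Feature Extraction (version 9.5.1 per the labels, 10.7.3.1 per the file headers). The deposited scanner files hold background-corrected intensity (processed signal) for 15744 spots per array. The authors' deposited value table holds log2 values scaled in GeneSpring GX 12.5 by every array's own 75th percentile, followed by centring of each probe. Here DM04300P2 in that table differed from the scanner values, after centring, by at most 0.02.

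From the scanner files, log2 processed signal less the log2 75th percentile over the 15208 non-control spots was computed. The 222 spots that carried an outlier flag were set to missing, duplicate spots were averaged, and the 14338 probes (14336 in the F tests) were tested with limma 3.58.1 in R 4.3.3. The model held photoperiod, letter and their interaction, as in the study's methods, with Benjamini-Hochberg adjustment and a threshold of 0.05. The script was tested on simulated data. Correlations and permutation tests (100000 resamples) used numpy 2.4.6 and scipy 1.17.1. The number of arrays, and for DM04300P2 its single dim spot, limit the precision.

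Alternatives were median scaling, quantile normalization, normexp (offset 50) with quantile normalization, the deposited log2 values, outlier spots kept, other models and blocks, a filter on dim probes, and leaving out each chamber. The normexp correction, planned on mean signal, was run on the median spot signal and the background median. Sequences and probe names came from the study's probe table, whose fold changes and p-values were not used.

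DM04300P2, its list and the tests were chosen with earlier results of these data known. The probes named were DM04300P2, 11 probes with a sex determination or egg name, and the 6 highest and 4 lowest correlations on each of 2 measures among probes above background on all arrays. Probes for doublesex, sperm or flagellar proteins were not analysed here.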

Additional observations from a re-analysis of the deposited data

Results flagged for a closer look

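Of 75 groups of 6 animals examined for a single animal far from the other 5, 6 were so marked, and chance marks about 1 in 20. None of the 5 groups of DM04300P2 values itself was among them. For the transformer probe DM06854P1, 1 animal of 20L:4D (chamber 1, letter A) had a log2 value of -2.39, above the other 5, whose mean was -4.24. For the chorion peroxidase probe DM03972P1, 1 control animal of 16L:8D (chamber 1, letter B) stood at -3.57 above 5 with a mean of -5.96. For the vitelline membrane outer layer probe DM06044P1, 1 animal of 20L:4D (chamber 3, letter A) stood at 5.34 above 5 with a mean of 4.28.

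The other 3 marks concerned arrays in the first row of a slide, and 1 array carried more than 1 of them. All 6 first-row arrays read DM04300P2 above its photoperiod mean, so these marks add nothing to that. In 4L:20D the 75th percentile of signal was 362 units on the array of chamber 1, letter A, against 481 to 537 on the other 5. That array read DM04300P2 at -4.55, second highest of its photoperiod. In 16L:8D the array of chamber 3, letter A, had 69.5% of probes well above background, against 79.4% to 80.9% on the other 5, and its negative control spots stood at a log2 value of -6.67, against -7.50 to -7.23. It read DM04300P2 at -4.86, where the spot was not well above background.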

How the results depend on the processing

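The log2 differences of DM04300P2 from the control in 8L:16D, at equinox and on the longest day were below 0 under all 30 alternatives run for each. For each photoperiod, many of the 30 could not move the difference. Examples are a change to the error model alone, or leaving out a chamber of neither group compared. The 30 are thus not separate checks of the sign. With normexp and quantile normalization, whose offset compresses dim probes by construction, the differences shrank to -0.11 in 8L:16D, -0.07 at equinox and -0.15 on the longest day. With each chamber left out in turn the range was -1.08 to -0.65 on the longest day. It was -0.82 to -0.40 in 8L:16D, -0.68 to -0.25 at equinox and -0.18 to 0.25 on the shortest day. The 12L:12D difference was -0.68 without control chamber 1 and -0.25 without control chamber 2. The 4L:20D difference, 0.07 as reported, was below 0 under 5 of its 30 alternatives, at -0.18 without control chamber 1, -0.06 with the slide as a block, -0.01 with the row as a block or with background-subtracted signal, and -0.23 without first-row arrays. Letter A minus B ranged from -0.01 to 0.17 when chambers were left out, turning to -0.0064 without 8L:16D chamber 2 and -0.0096 without 12L:12D chamber 1.

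The relation of DM04300P2 to the share of probes well above background passed its threshold after quantile normalization (r = -0.57, adjusted permutation p = 0.00264) and after normexp with quantile normalization (r = -0.49, adjusted permutation p = 0.0242), and that to the first principal component turned to r = 0.0015 with normexp. The cause was not tested. The r of the 20 correlated probes kept its sign under all alternatives, with DM05726P3 as low as 0.06.

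Of all probes, 10 passed the photoperiod test as reported. The count was 22 with the slide as a block, 19 with photoperiod alone or with the chamber as a random block, 6 on chamber means, 3 with dim probes left out, 4 without first-row arrays, and 6 to 16 with a chamber left out. None of the 9 second-trial probes passed under any alternative.

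With the chamber number as a replicate block the count was 17 and the differences of DM04300P2 were as reported. The numbers name chambers within a photoperiod and do not pair samples: chambers of equal number in different photoperiods had a mean correlation of -0.03 over 30 pairs (from -0.67 to 0.42).

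Row, background-subtracted and control-spot alternatives were chosen after seeing the data. DM04300P2 was not well above background on 10 of 30 arrays, so its low values carry the spot error given above, and no second probe of its target was on the array.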
